A study of Mus musculus with 12 samples.

Results

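The transcripts described here belong to 45 genes of mitosis and the spindle, chosen by name for the roles of their proteins in the division of a cell. They cover the kinase Cdk1 with its cyclins and activating phosphatases, further mitotic kinases, the chromosomal passenger complex, the spindle checkpoint, centromere and kinetochore proteins, spindle motors, cytokinesis proteins, chromosome condensation, and the ubiquitin machinery of mitotic exit. Each gene was followed on its brightest probe set that names a single gene, and 44 of the 45 had one, out of 18193 genes measured in this way. The exception was Ccnb1, cyclin B1, which the array carries only on probe sets that name several genes, so no level is given for it.

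The arrays measured mRNA in neural tubes, from which brain and spinal cord develop, micro-dissected from embryos of ICR (CD-1) mice, an outbred stock. The 3 groups were GD8.5, GD9.0 and GD9.5, gestation days counted from the morning on which a vaginal plug was seen. The labels name no treatment and no altered allele in any group. Each stage had 4 arrays labelled as biological replicates, without saying whether an array was 1 litter or a pool, so the p-values measure the spread between these samples. The results rest on the 10 arrays given in log2 units, namely GD8.5 replicates 3 and 4 and all 4 replicates of GD9.0 and of GD9.5. GD8.5 replicates 1 and 2 were deposited as linear intensities and entered only an alternative with 12 arrays.

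A cell enters mitosis when Cdk1, bound to a cyclin and freed of inhibitory phosphate by Cdc25 phosphatases, phosphorylates its targets. Chromosomes condense, kinetochores attach them to spindle microtubules, and the anaphase-promoting complex, or APC/C, then marks cyclins and securin for destruction so that sister chromatids part and cytokinesis can follow. Most of these genes are transcribed late in the cell cycle, and in the neural tube the dividing neuroepithelial cells move their nuclei to the apical surface before each mitosis, while cells that become neurons stop dividing.

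Many genes of this kind share promoter elements. The cell cycle genes homology region, CHR, has the letters TTTGAA and is bound by Lin54 in the MuvB complex, which pairs with the repressive partners of the DREAM complex in resting cells and with Mybl2 and Foxm1 in cycling cells, and the CCAAT box is bound by NF-Y. The 140 bases before the start of 7 genes are shown because calls of both directions fall among these genes. All are RefSeq sequences of build GRCm38, 5′ to 3′ on the strand of the gene, and capitals mark TTTGAA or CCAAT on either strand, read as TTCAAA and ATTGG where the match lies on the other strand. No 2 matches in these windows overlapped.
Cdc25b, chr2:131186808-131186947, plus strand: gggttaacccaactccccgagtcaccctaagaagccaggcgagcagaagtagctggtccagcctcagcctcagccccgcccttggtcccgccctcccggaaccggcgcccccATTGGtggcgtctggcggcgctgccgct
Mki67, chr7:135716380-135716519, minus strand: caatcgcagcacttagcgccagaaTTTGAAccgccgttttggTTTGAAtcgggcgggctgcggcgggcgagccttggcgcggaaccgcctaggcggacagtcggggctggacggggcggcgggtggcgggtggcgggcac
Kif11, chr19:37376242-37376381, plus strand: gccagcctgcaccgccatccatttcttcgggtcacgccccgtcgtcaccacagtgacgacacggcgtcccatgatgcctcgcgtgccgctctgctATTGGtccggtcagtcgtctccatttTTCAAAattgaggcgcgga
Ncapg, chr5:45669785-45669924, plus strand: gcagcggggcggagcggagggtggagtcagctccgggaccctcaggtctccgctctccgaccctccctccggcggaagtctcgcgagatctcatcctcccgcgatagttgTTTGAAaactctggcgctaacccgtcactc
Ube2c, chr2:164769789-164769928, plus strand: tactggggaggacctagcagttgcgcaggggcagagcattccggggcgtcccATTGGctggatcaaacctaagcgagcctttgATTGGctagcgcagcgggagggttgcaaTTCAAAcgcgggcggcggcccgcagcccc
Cdk1, chr10:69352913-69353052, minus strand: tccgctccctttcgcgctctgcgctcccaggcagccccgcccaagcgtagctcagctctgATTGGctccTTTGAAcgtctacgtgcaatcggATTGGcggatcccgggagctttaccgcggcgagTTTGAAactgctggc
Ccnb2, chr9:70421555-70421694, minus strand: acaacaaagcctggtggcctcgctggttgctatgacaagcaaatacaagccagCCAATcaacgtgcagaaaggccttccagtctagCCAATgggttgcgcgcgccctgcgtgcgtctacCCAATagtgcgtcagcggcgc

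Cdk1 had 2 CHR matches, beginning 71 and 15 bases before the start, and 2 CCAAT boxes whose first bases lay 32 apart. The paired boxes of Ube2c were 31 apart, with a CHR match 29 bases before the start. Ccnb2 had 3 CCAAT boxes in the printed window, spaced 33 and 33 bases apart, and Kif11 had 1 match of each kind. The printed windows are shorter than the promoter that was searched, from 250 bases before to 50 after the start, and matches outside them are not shown. In that promoter 6 of the 7 genes held both elements, with 2 TTTGAA and 3 CCAAT matches each in Mki67, Cdk1 and Ccnb2, 1 and 6 in Ube2c, and 1 and 1 in Kif11 and in Ncapg. Cdc25b held a single CCAAT box and no TTTGAA.

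Promoters of this length in the RefSeq table were matched for 38 of the 45 genes, and for 14452 of all genes measured. Ccnb1 is among the 38 although it has no level. Kif20a, Cdc25c, Tpx2, Ccna2, Incenp, Aurkb and Smc4 had no entry in the table. TTTGAA, searched on both strands, was found in 28 of the 38 promoters, or 73.7%, against 13.3% of all promoters. The related hexamer TTTAAA, which reads the same on both strands, was found in 28.9% against 10.2%. CCAAT, searched on both strands, was found in 81.6% against 38.2%, and TTTGAA and CCAAT together in 65.8% against 5.4%. A promoter with TTTGAA and 2 or more CCAAT boxes was found for 44.7% of the mitosis and spindle genes and 1.8% of all genes. Of the 28 promoters with TTTGAA, 17 had a match after the start and 11 had all of theirs before it.

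**Figure D1:**
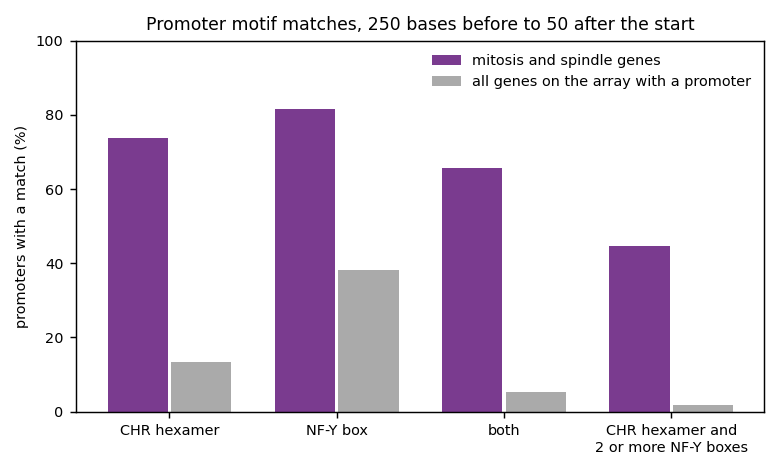
Share of promoters (%) with a match to TTTGAA (the CHR hexamer), to CCAAT (the NF-Y box), to both, or to TTTGAA with 2 or more CCAAT boxes, for the mitosis and spindle genes (purple, 38 promoters) and for all genes with a promoter (grey, 14452). The purple bars stand at 73.7%, 81.6%, 65.8% and 44.7%, and the grey bars at 13.3%, 38.2%, 5.4% and 1.8%.

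The tissue label was checked against marker genes. All 10 neural progenitor markers, such as Sox2 and Pax6, were above the level of olfactory receptor genes (1.42 on the log2 scale) at every stage, and their summed log2 level was 52.9 to 53.0 at GD8.5, 60.6 to 60.7 at GD9.0 and 68.2 to 68.9 at GD9.5. The 13 young neuron markers summed to 43.7 to 44.0, 48.8 to 49.9 and 68.8 to 70.1 over the same stages. The 12 cardiac muscle markers ran the other way, with sums of 69.9 to 70.4, 36.6 to 37.6 and 16.8 to 18.8, and 6 of 12 were above the olfactory receptor level at GD9.5, against 12 of 12 at GD9.0 and at GD8.5. The 12 endoderm and yolk sac markers summed to 73.1 to 73.3, 39.2 to 40 and 18.1 to 19.1, and 8 of 12 were above that level at GD9.5. Primitive erythroid markers, 9 of 10 measured, summed to 40.3 to 41.7, 49.5 to 50.1 and 54.9 to 56.6, surface ectoderm markers, 8 in number, to 42.4, 37.0 to 38.1 and 33.3 to 34.2, the 8 endothelial markers to 25.5 to 25.9, 24.8 to 25.3 and 23.4 to 24.0, and the 8 mesenchyme markers to 35.8, 36.2 to 36.7 and 36.9 to 37.5. The mesenchyme markers did not move together. Their median log2 change was -0.233 by GD9.0 and -0.202 over the day, with 3 of the 8 positive each time. Col3a1 rose most, by 2.11 and 2.64. A measure of RNA quality, the 3′ minus the 5′ actin control, averaged 0.710, 0.563 and 0.932 at the 3 stages on the log2 scale. These lists moved with stage, and their part in the changes of the mitosis and spindle genes was not tested.

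All 44 genes lay above the olfactory receptor level at every stage, with stage means between 3.85 and 9.71 on the log2 scale. Their levels summed to 329.9 to 330.4 at GD8.5, 335.2 to 337.2 at GD9.0 and 334.2 to 336.4 at GD9.5. The replicates lay close together, with a median SD over the 44 genes of 0.0285 at GD8.5 (n = 2), 0.0518 at GD9.0 (n = 4) and 0.0425 at GD9.5 (n = 4), and the number of arrays limits the precision. The widest spread was that of Cdc25b at GD8.5 (SD 0.290). In neural tubes measured in bulk, fewer dividing cells and less RNA per cell cannot be told apart.

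Between GD8.5 and GD9.0 the mitosis and spindle genes that changed all rose. Cdc25b led with a 1.60-fold rise, and the proliferation marker Mki67, the motor Kif4, the microtubule bundler Prc1, the kinetochore protein Cenpf and the spindle pole protein Aspm rose by 1.23-fold to 1.30-fold. With limma and an adjusted p under 0.05 over all 18193 genes, 10 of the 44 were higher at GD9.0 than at GD8.5, or 22.7%, where 6.78% of all genes were. None of the 44 was lower in that test, where 6.74% of all genes were. Among genes above the olfactory receptor level 9.33% were higher and 8.66% lower. For the 44, at an unadjusted p under 0.05 the counts were 19 higher and 0 lower, where 25.2% of all genes passed in either direction. The median change of the 44 was 0.142 on the log2 scale, against -0.002 over all genes, and 36 of them were positive. On 23 genes every GD9.0 array lay above both GD8.5 arrays (17.6% of all genes), and on 3 every one lay below (16.9%). The count of 10 was 6 without GD8.5 replicate 3, 5 without GD8.5 replicate 4 and 6 without GD9.0 replicate 4, and 19 with an intensity trend and robust spread.

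Between GD9.0 and GD9.5 the called genes went both ways, as did the called genes among all those measured. Cdc25b rose a further 1.99-fold and Aspm, Spc25, Kif4 and Mki67 rose by 1.12-fold to 1.16-fold, while the cytokinesis scaffold Anln, the kinases Aurka and Bub1, the central spindle motor Kif20a, the condensin subunit Ncapg, the cyclin Ccnb2, the ubiquitin-conjugating enzyme Ube2c and Cenpf fell by 1.12-fold to 1.35-fold. By the same test 5 genes (11.4%) rose and 8 (18.2%) fell between GD9.0 and GD9.5, where 14.1% and 10.3% of all genes did, and 19.2% and 13.8% of genes above the olfactory receptor level. The median change was -0.055, against -0.008 over all genes. Every GD9.5 array lay above every GD9.0 array for 9 genes (15.1% of all genes) and below for 15 (11.9%). With each array centred on its median the split was 2 higher and 14 lower, and with 12 arrays 2 higher and 4 lower. The 5 higher calls were 3 without GD9.5 replicate 4, and an intensity trend with robust spread gave 10 higher and 13 lower.

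Over the full day 14 genes were higher at GD9.5 than at GD8.5 (31.8%, against 15.5% of all genes) and 6 were lower (13.6%, against 13.1%), with 21.3% and 16.6% among genes above the olfactory receptor level. Cdc25b was 3.19-fold higher, and Kif4, Mki67, Aspm and Prc1 were 1.39-fold to 1.46-fold higher. Anln, Kif20a, Aurka, Ube2c, Cdk1 and the APC/C activator Cdc20 were 1.15-fold to 1.29-fold lower. The median change was 0.088, against -0.016 over all genes, and 24 genes lay higher on every GD9.5 array (23.2% of all genes) and 10 lower (22.7%). This comparison shares its GD8.5 arrays with the first interval and its GD9.5 arrays with the second, and both intervals share the GD9.0 arrays. The 14 higher calls were 6 without GD8.5 replicate 3, 6 without GD8.5 replicate 4, 9 without GD9.5 replicate 2, 8 without replicate 3 and 9 without replicate 4 of that stage, and the 6 lower calls were 1 and 3 without GD8.5 replicates 3 and 4. With arrays centred on their medians 8 were higher and 6 lower.

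**Figure D2:**
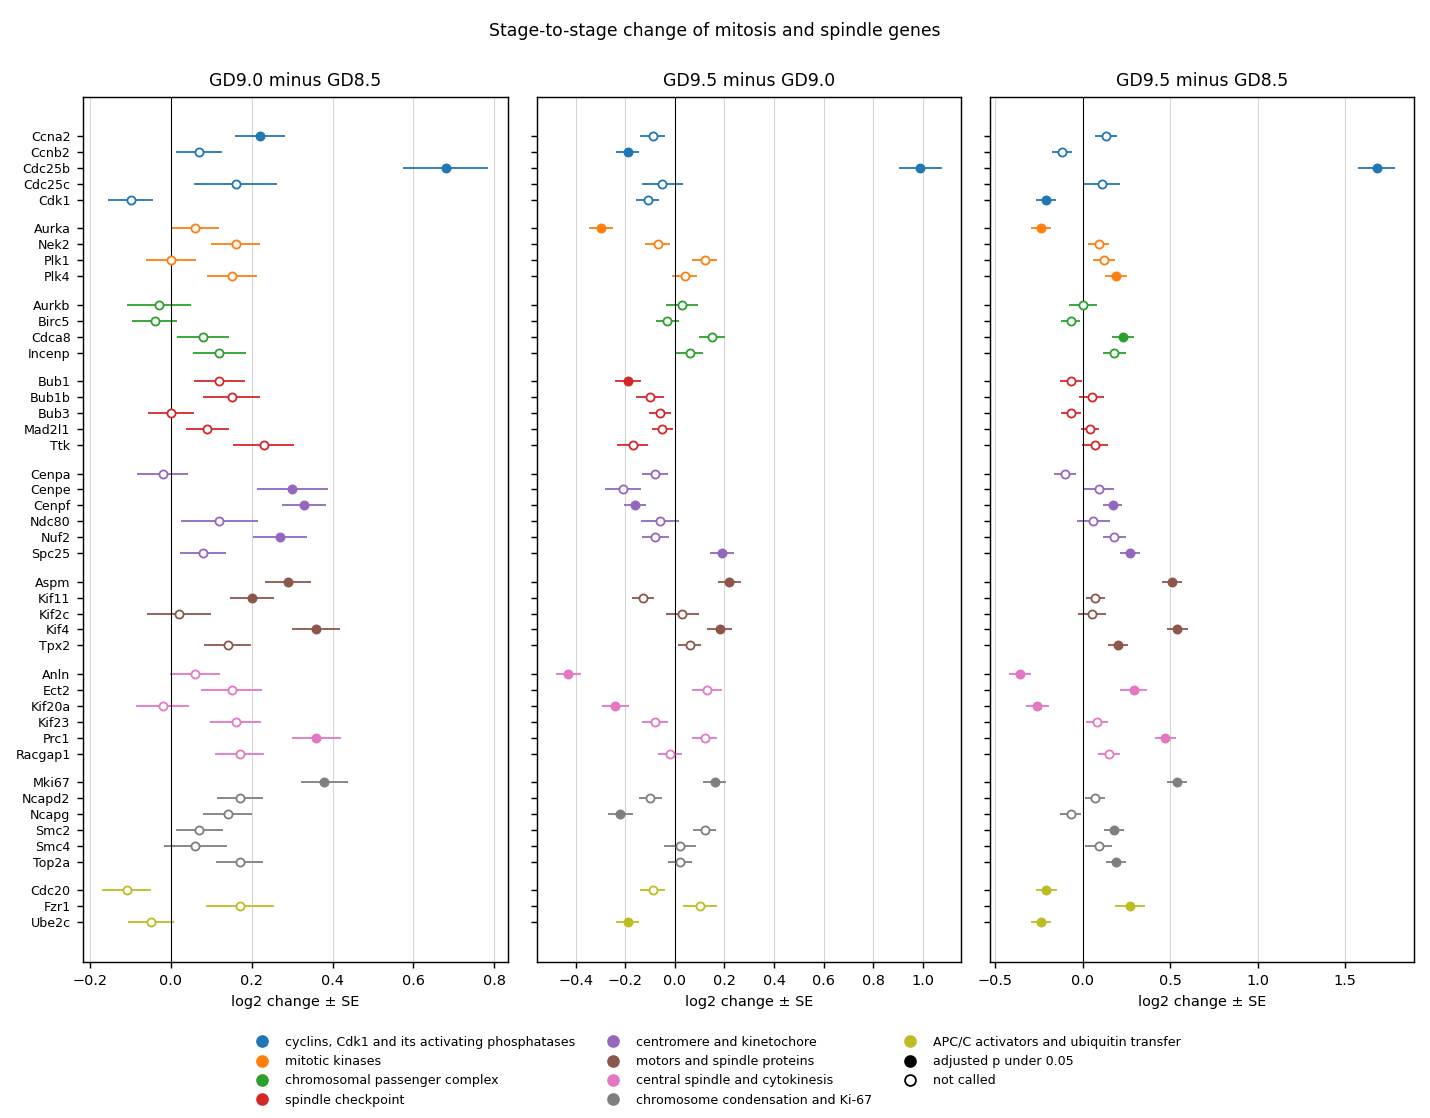
Change of each of the 44 genes on the log2 scale (horizontal axis, standard error as bars) from stage to stage, grouped and coloured by role, with filled points for an adjusted p under 0.05; the 3 panels have different axis ranges. Cdc25b stands at 0.68, 0.99 and 1.68, to the right of all others, and Anln at -0.43 in the middle panel is the lowest point of that panel.

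Sorted by both intervals, 4 genes rose in both, namely Mki67, Cdc25b, Kif4 and Aspm. A further 5, Ccna2, Kif11, Cenpe, Prc1 and Nuf2, rose by GD9.0 and were not called after it. Cenpf was the 1 gene called higher and then lower. The 7 genes Ccnb2, Aurka, Bub1, Kif20a, Anln, Ncapg and Ube2c were not called in the first interval and fell in the second, Spc25 rose in the second only, and 26 were called in neither. The full day added 9 genes, with Cdc20 and Cdk1 lower and Cdca8, Ect2, Fzr1, Plk4, Smc2, Top2a and Tpx2 higher at GD9.5. The share of all genes with each of these patterns was not counted, so the groups are given as a listing only. Among genes above the olfactory receptor level, a change of over 1.5-fold was seen in 5.81%, 6.38% and 13.3% in the 3 comparisons, and Cdc25b was the 1 mitosis and spindle gene past it in each.

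The regulators of mitotic entry did not share a direction. Cdc25b, a phosphatase that activates Cdk1 and that in the chick spinal cord is known to promote the production of neurons, had log2 values of 4.05 and 3.64 at GD8.5, of 4.48, 4.5, 4.52 and 4.61 at GD9.0 and of 5.40, 5.50, 5.64 and 5.55 at GD9.5. The 3 stages formed separate steps with no array out of order. The change was 0.68 ± 0.106 (SE) for GD9.0 minus GD8.5 (limma, adjusted p = 0.00119), 0.99 ± 0.0862 for GD9.5 minus GD9.0 (adjusted p = 1.1e-05) and 1.68 ± 0.106 over the day (adjusted p = 3.98e-07). On the scale of the 12-array alternative, Cdc25b stood at 4.94, 4.5, 4.81 and 4.46 on the 4 GD8.5 arrays, at 5.23 to 5.36 at GD9.0 and at 6.08 to 6.30 at GD9.5, and all 4 GD8.5 arrays lay below those of GD9.0.

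Cdk1, the kinase that drives mitotic entry, had 8.99 and 9.01 at GD8.5, 8.93, 8.85, 8.93 and 8.89 at GD9.0 and 8.76, 8.78, 8.83 and 8.78 at GD9.5. Each stage lay below the one before, and only the full-day change of -0.21 ± 0.0557 passed the test (limma, adjusted p = 0.0144). Ccnb2, a mitotic cyclin partner of Cdk1, had 7.96 and 8.04 at GD8.5, 8.11, 8.04, 8.07 and 8.07 at GD9.0 and 7.85, 7.89, 7.87 and 7.92 at GD9.5. All of its GD9.5 arrays were under all of its GD9.0 arrays, a change of -0.19 ± 0.0462 (limma, adjusted p = 0.0122). Ccna2, the cyclin of S phase and mitotic entry, averaged 8.71 ± 0.0437 (SD, n = 4) at GD9.0 against 8.50 ± 0.0595 (n = 2) at GD8.5, a rise of 0.22 ± 0.0626 (SE, adjusted p = 0.0429), and 8.63 ± 0.0572 at GD9.5. That call was lost under 12 of 19 alternatives, among them the omission of GD8.5 replicate 3 or 4, GD9.0 replicate 1, 3 or 4, or GD9.5 replicate 1, 2 or 4. On the other probe set of Ccna2, 1417910_at, the mean was 8.39 at GD9.5 against 8.16 at GD9.0, a called rise of 0.23 ± 0.0649 (limma over probe sets, adjusted p = 0.0271). Cdc25c, a phosphatase related to Cdc25b, was not called, with stage means of 4.94, 5.10 and 5.05 and an SD of 0.189 at GD9.0, the largest of the 44 at that stage.

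Of the other mitotic kinases, Aurka fell. This kinase, which matures centrosomes and builds the spindle poles, had 7.69 and 7.61 at GD8.5, 7.67, 7.71, 7.75 and 7.68 at GD9.0 and 7.39, 7.34, 7.43 and 7.45 at GD9.5. The first pair of stages overlapped and GD9.5 lay below both, with changes of -0.30 ± 0.0484 against GD9.0 (limma, adjusted p = 0.000913) and -0.24 ± 0.0593 against GD8.5 (adjusted p = 0.0091). Plk4, the kinase of centriole duplication, rose over the full day by 0.19 ± 0.0620 (adjusted p = 0.0378), with stage means of 8.28, 8.44 and 8.48. Plk1, a kinase of entry, spindle and cytokinesis, had means of 6.85, 6.85 and 6.97 and was not called, although its GD9.5 arrays (6.89 to 7.02) lay above its GD9.0 arrays (6.80 to 6.88). Nek2, a kinase of centrosome separation, had means of 6.71, 6.87 and 6.80 and was not called.

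The chromosomal passenger complex, which corrects faulty attachments at the centromere, had 1 called gene of 4. It was higher over the day, as were 15.5% of all genes. Aurkb, its kinase, Birc5 and Incenp, its partners, were called in no comparison, with stage means of 7.04, 7.01 and 7.04 for Aurkb, 8.48, 8.44 and 8.40 for Birc5 and 7.88, 8.0 and 8.06 for Incenp. The 95% interval of the full-day change of Aurkb ran between -0.17 and 0.18 on the log2 scale, and that of Birc5 between -0.20 and 0.05. Cdca8, or borealin, was the exception and rose over the day by 0.23 ± 0.0647 (limma, adjusted p = 0.0225), with stage means of 8.49, 8.57 and 8.72. That call was lost under 6 of 19 alternatives, among them probe sets not shared between transcripts, arrays centred on their medians and 12 arrays. Of its 3 probe sets, 2 were called higher over the day and 1 was called lower in the second interval.

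The spindle checkpoint holds anaphase back until every kinetochore is attached. Of its 5 genes only Bub1 was called, lower in the second interval, as were 10.3% of all genes. Bub1, a kinetochore kinase that recruits other checkpoint proteins, had 9.14 and 9.10 at GD8.5, 9.30, 9.26, 9.14 and 9.23 at GD9.0 and 8.99, 9.08, 9.04 and 9.07 at GD9.5. Its GD9.5 arrays were below all earlier ones, and the change against GD9.0 was -0.19 ± 0.0515 (limma, adjusted p = 0.0194). Bub1b, Bub3, Mad2l1 and Ttk, the other checkpoint proteins, were called in no stage comparison, and all 5 checkpoint genes had negative changes in the second interval, between -0.19 and -0.05. For Ttk, the kinase that starts the checkpoint signal, the change was 0.23 ± 0.0754 in the first interval and -0.17 ± 0.0616 in the second, and each missed the threshold (adjusted p = 0.067 and 0.0742).

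The 6 genes of the centromere and kinetochore differed by interval. Cenpf, a large coiled-coil protein of the outer kinetochore, had 8.09 and 8.02 at GD8.5, 8.38, 8.36, 8.37 and 8.40 at GD9.0 and 8.18, 8.24, 8.23 and 8.21 at GD9.5. GD9.0 stood above both other stages on every array, with changes of 0.33 ± 0.0546 (limma, adjusted p = 0.00184) and then -0.16 ± 0.0446 (adjusted p = 0.0212). Cenpe, a plus-end directed motor that moves chromosomes to the metaphase plate, had 7.33 and 7.25 at GD8.5, 7.61, 7.62, 7.57 and 7.58 at GD9.0 and 7.48, 7.18, 7.34 and 7.52 at GD9.5. It rose by 0.30 ± 0.0879 in the first interval (adjusted p = 0.0424), and its GD9.5 arrays overlapped those of GD8.5.

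The Ndc80 complex, the kinetochore's hold on microtubules, was represented by Ndc80, Nuf2 and Spc25. Spc25 had 7.68 and 7.63 at GD8.5, 7.78, 7.75, 7.67 and 7.76 at GD9.0 and 7.94, 7.96, 7.90 and 7.92 at GD9.5. The earlier stages overlapped and GD9.5 lay above both, by 0.19 ± 0.0467 against GD9.0 (limma, adjusted p = 0.0124). The direction turned with other probe sets, to -0.06 with their mean and -0.30 with unshared ones, and the call was lost with centred arrays and with 12 arrays. Nuf2 rose in the first interval instead, by 0.27 ± 0.0666 (adjusted p = 0.0218), with stage means of 5.95, 6.22 and 6.14. Ndc80 itself had means of 6.33, 6.44 and 6.39 and was not called, and neither was Cenpa, the centromeric histone, with means of 8.44, 8.42 and 8.33.

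Spindle motors and spindle proteins had positive changes in the first interval in 5 of 5 genes, as in 36 of all 44, and 3 of the 5 were called (6.78% of all genes). Kif4, a chromosome-bound kinesin that acts on the anaphase spindle, had 5.72 and 5.76 at GD8.5, 6.14, 6.15, 6.10 and 6.02 at GD9.0 and 6.25, 6.26, 6.29 and 6.32 at GD9.5. The stages did not overlap, and the changes were 0.36 ± 0.0597 (limma, adjusted p = 0.00174), 0.18 ± 0.0488 (adjusted p = 0.0201) and 0.54 ± 0.0597 over the day (adjusted p = 3.83e-05). Aspm, a spindle pole protein whose human gene is mutated in a form of primary microcephaly, had 7.21 and 7.19 at GD8.5, 7.48, 7.46, 7.47 and 7.55 at GD9.0 and 7.73, 7.66, 7.76 and 7.70 at GD9.5. It too climbed in separate steps, of 0.29 ± 0.0575 (adjusted p = 0.00547) and 0.22 ± 0.0469 (adjusted p = 0.00536).

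The probe sets of Aspm did not agree, however. Its brightest probe set, 1422814_at, was called higher at GD9.5 in the second interval while 1458873_at was called lower, with a change of -0.67 ± 0.131 and means of 2.78 at GD9.5 and 3.46 at GD9.0 (limma over probe sets, adjusted p = 0.00323). The other 3 probe sets, 1452459_at, 1458560_at and 1441520_at, had changes of -0.14, -0.16 and -0.14 and were not called. No other of the 44 genes had probe sets called in opposite directions within 1 stage comparison. With the mean of its probe sets Aspm changed by -0.18 in the second interval and did not pass the test.

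Kif11, the kinesin that pushes spindle poles apart, rose by 0.20 ± 0.0541 in the first interval (limma, adjusted p = 0.031), and its change of -0.13 ± 0.0442 in the second missed the threshold (adjusted p = 0.0506). Of its 3 probe sets, 2 were called higher over the day, whereas the full-day change on the brightest was 0.07 and was not called. Tpx2, which nucleates spindle microtubules and activates Aurka, rose over the full day by 0.20 ± 0.0580 (adjusted p = 0.0228), with stage means of 7.06, 7.21 and 7.27. Kif2c, a kinesin that takes microtubules apart at the centromere, was not called, with means of 7.70, 7.73 and 7.76.

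**Figure D3:**
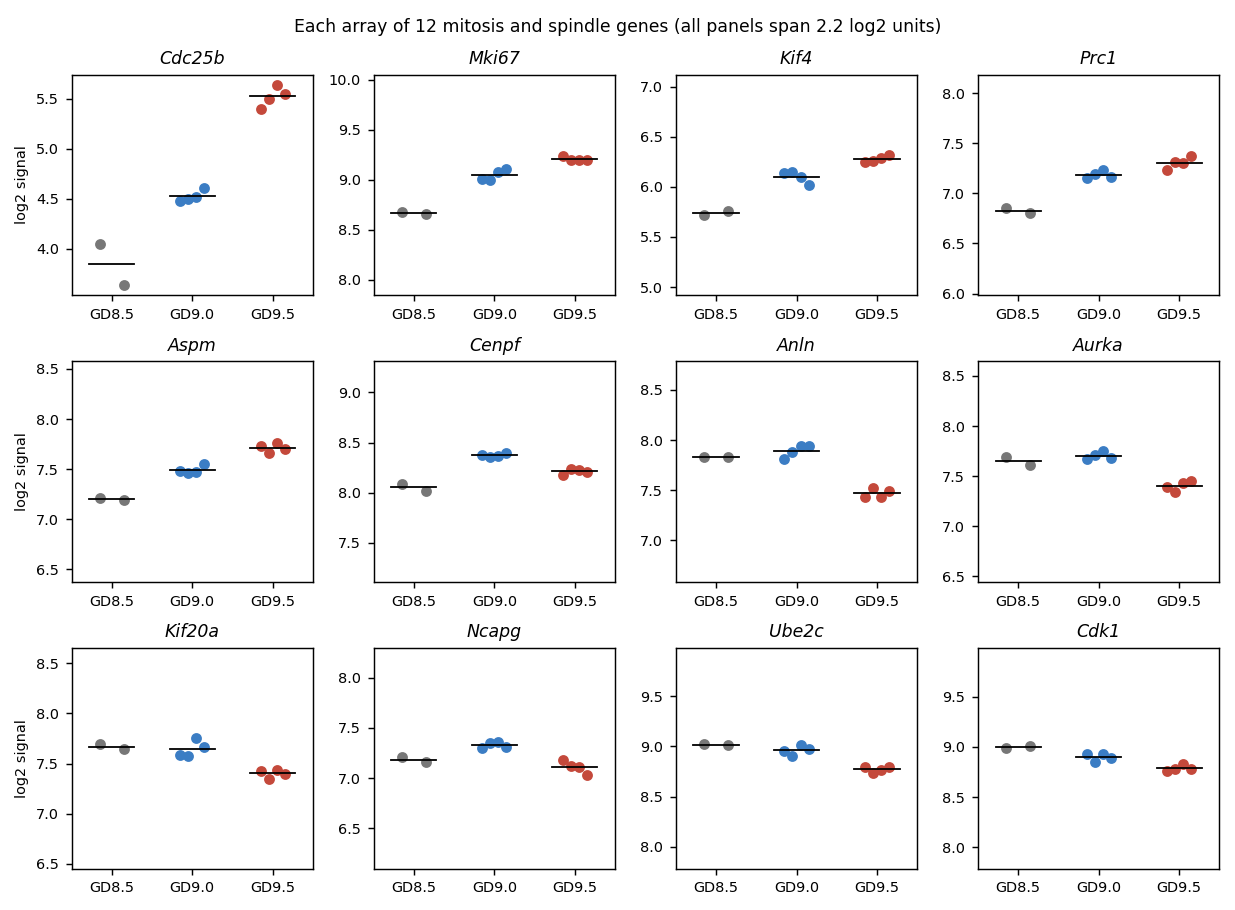
Log2 signal of 12 genes on each of the 10 arrays (points) at GD8.5 (grey, 2 arrays), GD9.0 (blue, 4 arrays) and GD9.5 (red, 4 arrays), with the stage mean as a line; every panel covers the same number of log2 units. Cdc25b, Mki67, Kif4 and Aspm step upward at both intervals, Cenpf is highest at GD9.0, and Anln, Aurka, Kif20a, Ncapg, Ube2c and Cdk1 have their lowest stage mean at GD9.5.

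Genes of the central spindle and of cytokinesis went both ways. Prc1, which bundles antiparallel microtubules between the parting chromosomes, had 6.85 and 6.80 at GD8.5, 7.15, 7.19, 7.23 and 7.16 at GD9.0 and 7.23, 7.31, 7.30 and 7.37 at GD9.5. It rose by 0.36 ± 0.0600 in the first interval (limma, adjusted p = 0.00207), and over the day by 0.47 ± 0.0600 (adjusted p = 0.000115). Anln, or anillin, which anchors actin, myosin and septins in the contractile ring, had 7.83 and 7.83 at GD8.5, 7.81, 7.88, 7.94 and 7.94 at GD9.0 and 7.43, 7.52, 7.43 and 7.49 at GD9.5. GD9.5 lay under both earlier stages on every array, with a change of -0.43 ± 0.0502 against GD9.0 (adjusted p = 9.9e-05) and of -0.36 ± 0.0615 against GD8.5 (adjusted p = 0.000928).

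Kif20a, a kinesin that brings Plk1 to the central spindle, followed Anln. Its values were 7.69 and 7.64 at GD8.5, 7.59, 7.58, 7.75 and 7.66 at GD9.0 and 7.43, 7.35, 7.44 and 7.40 at GD9.5. The earlier stages overlapped, and GD9.5 was lower, with a change of -0.24 ± 0.0534 against GD9.0 (limma, adjusted p = 0.00697). Ect2, the exchange factor that switches on RhoA at the furrow, had 7.56 and 7.55 at GD8.5, 7.71, 7.74, 7.70 and 7.67 at GD9.0 and 7.95, 7.75, 7.72 and 7.93 at GD9.5. It rose over the full day by 0.29 ± 0.0754 (adjusted p = 0.0146), with GD9.5 arrays that reached from the level of GD9.0 to well above it. The full-day call of Ect2 was lost under 4 of 18 alternatives, 12 arrays among them. Its change lay between 0.08 and 0.33 across the 18. With 12 arrays, Ect2 stood at 8.74, 8.56, 8.23 and 8.23 at GD8.5, against 8.4 to 8.63 at GD9.5, so these stages overlapped. Racgap1 and Kif23, the pair that forms the centralspindlin complex and recruits Ect2, were not called, with stage means of 5.26, 5.43 and 5.41 for Racgap1 and 7.21, 7.37 and 7.29 for Kif23. Another probe set of Racgap1, 1421546_a_at, was called higher at GD9.5, by 0.60 ± 0.0683 against GD9.0 (limma over probe sets, adjusted p = 7.75e-05), with means of 5.71 at GD9.5 and 5.11 at GD9.0. It was the dimmer at GD9.0 and the brighter at GD9.5.

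Among chromosome proteins Mki67 and Ncapg moved apart in the second interval. Mki67, the Ki-67 antigen that coats mitotic chromosomes and serves as a marker of cycling cells, had 8.68 and 8.66 at GD8.5, 9.01, 9.00, 9.08 and 9.11 at GD9.0 and 9.24, 9.20, 9.20 and 9.20 at GD9.5. No stages overlapped, and the changes were 0.38 ± 0.0575 (limma, adjusted p = 0.00105), 0.16 ± 0.0470 (adjusted p = 0.0283) and 0.54 ± 0.0575 over the day (adjusted p = 3.01e-05). Ncapg, a subunit of condensin I, had 7.21 and 7.16 at GD8.5, 7.30, 7.35, 7.36 and 7.31 at GD9.0 and 7.18, 7.12, 7.11 and 7.03 at GD9.5. Its GD9.0 arrays stood above both other stages, and the change against GD9.0 was -0.22 ± 0.0491 (adjusted p = 0.00743).

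Smc2 and Top2a were called over the full day. Smc2, the condensin core subunit, rose over the day by 0.18 ± 0.0577 (limma, adjusted p = 0.0352), with means of 8.99, 9.06 and 9.17, while its partner Smc4, with 9.51, 9.57 and 9.59, and Ncapd2, with 5.86, 6.03 and 5.93, were not called. Top2a, which untangles sister DNA, rose over the day by 0.19 ± 0.0590 (adjusted p = 0.0362) on its brightest probe set, with means of 9.39, 9.55 and 9.57. A dimmer probe set of Top2a, 1442454_at, was called lower over the same span, with a change of -0.37 ± 0.0781, with means of 5.08 at GD9.5 and 5.45 at GD8.5 (limma over probe sets, adjusted p = 0.0044), where the brightest missed the threshold (adjusted p = 0.0583). With the mean of its probe sets Top2a changed by -0.06.

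At mitotic exit, Ube2c and Cdc20 were lower at GD9.5 and Fzr1 higher. Ube2c, the enzyme that hands ubiquitin to the APC/C, had 9.02 and 9.01 at GD8.5, 8.95, 8.91, 9.01 and 8.97 at GD9.0 and 8.80, 8.74, 8.77 and 8.80 at GD9.5. It fell below both earlier stages, with changes of -0.19 ± 0.0462 against GD9.0 (limma, adjusted p = 0.0128) and -0.24 ± 0.0566 against GD8.5 (adjusted p = 0.00801). Cdc20, which activates the APC/C at anaphase, had 9.53 and 9.51 at GD8.5, 9.36, 9.39, 9.49 and 9.41 at GD9.0 and 9.31, 9.34, 9.36 and 9.26 at GD9.5. Over the full day it fell by 0.21 ± 0.0597 (adjusted p = 0.0234), and all 3 of its probe sets were called lower. Fzr1, or Cdh1, the activator that follows Cdc20 and keeps the APC/C active in G1, rose over the day by 0.27 ± 0.0845 (adjusted p = 0.0344), with means of 3.88, 4.05 and 4.15. That call was lost under 10 of 19 alternatives, and the GD8.5 arrays, at 3.74 and 4.02, lay apart (SD 0.193). On the scale of the 12-array alternative, Fzr1 stood at 4.49, 5.35, 4.52 and 4.82 at GD8.5, against 4.82 to 4.90 at GD9.5.

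The 17 genes called in no comparison, Aurkb, Birc5, Bub1b, Bub3, Cdc25c, Cenpa, Incenp, Kif23, Kif2c, Mad2l1, Ncapd2, Ndc80, Nek2, Plk1, Racgap1, Smc4 and Ttk, had changes between -0.17 and 0.23. On their brightest probe sets the 95% intervals all lay within -0.30 to 0.40 on the log2 scale. A change beyond 1.32-fold lies outside each of these intervals. Some of them were called on another probe set, Racgap1 among them with the rise given above. Cenpa had a dimmer probe set, 1444416_at, with means of 3.41 at GD9.0 and 1.94 at GD8.5, a called rise of 1.48 ± 0.102 (limma over probe sets, adjusted p = 2.08e-06). Over all 44 genes there were 103 probe sets, with 14 genes on 1 and 30 on several, up to 5.

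The change in the second interval was also set against the change in the first, in a test of that difference. No gene of the 44 was called with the more positive change in the second interval, where 6.97% of all genes were, and none was at an unadjusted p under 0.05. In 8 genes (18.2%, against 4.67% of all genes) the second change was the lower. The differences were -0.52 ± 0.134 for Cenpe (limma, adjusted p = 0.0302), -0.49 ± 0.0834 for Cenpf (adjusted p = 0.00344), -0.49 ± 0.0939 for Anln (adjusted p = 0.00643) and -0.40 ± 0.115 for Ttk (adjusted p = 0.0465). For Aurka and Ncapg the difference was -0.36 each, for Nuf2 -0.35 and for Kif11 -0.33. The 2 changes share the GD9.0 arrays with opposite signs. The count of 8 fell to 2 without GD8.5 replicate 3, GD8.5 replicate 4 or GD9.0 replicate 4, to 3 to 5 without 5 of the other arrays (GD9.0 replicates 1, 2 and 3 and GD9.5 replicates 1 and 3), and to 4 with 12 arrays, and was 16 with centred arrays.

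Promoters with and without TTTGAA held genes of each direction. Of the 28 genes with a match, 6 were higher and 0 lower in the first interval (21.4% and 0%, against 6.78% and 6.74% of all genes), 4 higher and 6 lower in the second (14.3% and 21.4%, against 14.1% and 10.3%), and 10 higher and 5 lower over the day (35.7% and 17.9%, against 15.5% and 13.1%). Of the 9 measured genes without one, 3 were higher in the first interval, 1 was higher and 1 lower in the second, and 3 were higher over the day. The difference between the classes was not tested. Cdk1 and Ube2c, both lower at GD9.5, and Kif11 and Mki67, both higher at GD9.0, all carry the hexamer in the windows printed above, whereas Cdc25b carries it nowhere in the promoter searched. The factors that bind these elements were looked at for that reason. Foxm1, Mybl2, Lin9 and Lin54 were not called on their brightest probe sets, with full-day changes of 0.12, 0.12, 0.06 and 0.09. Of the 4 probe sets of Foxm1, 1 was called higher in the second interval. Of the 2 probe sets of Mybl2, 1 was called lower by GD9.0 and 1 higher in the second interval. Rbbp4, a histone-binding subunit of MuvB, rose by 0.25 in the second interval (limma, adjusted p = 0.00169) and by 0.18 over the day (adjusted p = 0.0294). Of the NF-Y subunits Nfya rose in the second interval, by 0.30 (limma, adjusted p = 0.0324), while Nfyb and Nfyc were not called.

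Further genes of the same machinery, 161 in 8 lists of which 158 were measured, were read in the same fit. At GD9.0, 28 were higher and 3 lower than at GD8.5 (17.7% and 1.9%, against 6.78% and 6.74% of all genes). At GD9.5, 31 were higher and 14 lower than at GD9.0 (19.6% and 8.86%, against 14.1% and 10.3% of all genes and 19.2% and 13.8% of genes above the olfactory receptor level), and over the day 56 were higher and 7 lower (35.4% and 4.43%, against 15.5% and 13.1% of all genes). Their median changes were 0.073, 0.062 and 0.115. In the second interval the median of these genes was positive where that of the 44 was negative, and this contrast was not tested.

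Of 22 regulators of mitotic gene transcription, 3 rose by GD9.0, 9 rose between GD9.0 and GD9.5 and 9 over the day, and none fell by limma at an adjusted p under 0.05. Of all genes, 6.78% were higher and 6.74% lower by GD9.0, 14.1% and 10.3% in the second interval, and 15.5% and 13.1% over the day. At an unadjusted p under 0.05, 2, 3 and 1 of the 22 regulators were lower in these comparisons. The largest rise by GD9.0 was that of Tfdp2, a dimer partner of E2F factors, with 6.06 at GD9.0 against 5.56 at GD8.5 (0.50 ± 0.0605). Rb1, the retinoblastoma protein that restrains E2F, stood at 6.13 at GD9.5, against 5.19 at GD9.0 and 4.80 at GD8.5, a rise of 0.94 ± 0.0797 in the second interval (adjusted p = 9.33e-06). Its relative Rbl1, a subunit of DREAM, rose by 0.53 in that interval (adjusted p = 3.22e-05), and the atypical repressors E2f7 and E2f8 by 0.62 (adjusted p = 4.81e-05) and 0.74 (adjusted p = 1.53e-05), named here after their values were seen. The other called rises of that interval were those of E2f2 (0.75, adjusted p = 0.000747), Tfdp2 (0.60) and E2f3 (0.16), and of Rbbp4 and Nfya as given above. Of the 2 probe sets of E2f8, 1 was called higher and 1 lower over the day.

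Of 16 APC/C subunits and inhibitors, 2 were higher and 1 lower at GD9.0, 1 higher and 1 lower at GD9.5 against GD9.0, and 4 higher and 1 lower over the day. The shares of all genes were 6.78% higher and 6.74% lower, then 14.1% and 10.3%, and 15.5% and 13.1% over the day. Ube2s, the enzyme that lengthens ubiquitin chains after Ube2c has begun them, dipped to 7.90 at GD9.0, against 8.52 at GD8.5, and stood at 8.50 at GD9.5, a change of -0.62 ± 0.0644 (limma, adjusted p = 6.93e-05) and then of 0.60 ± 0.0526 (adjusted p = 1.18e-05). Anapc1 rose by 0.31 in the first interval, Fbxo5, the inhibitor of the APC/C in interphase, fell by 0.21 in the second, and over the day Anapc7 rose by 0.30 and Anapc11 fell by 0.25. Of 18 other regulators of entry and exit, 1 rose by GD9.0, 3 in the second interval and 4 over the day and none fell, also at an unadjusted p under 0.05, with Nek6 (0.43) and Nek7 (0.48, and 0.71 over the day) the largest rises.

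Kinetochore and centromere genes outside the 44 moved as a mixed group, with 8 higher and 0 lower of 34 by GD9.0, 2 higher and 5 lower in the second interval, and 10 higher and 4 lower over the day. Over all genes these shares were 6.78% and 6.74%, 14.1% and 10.3%, and 15.5% and 13.1%. Dsn1, of the Mis12 complex, rose by 0.46 in the first interval (limma, adjusted p = 0.00465), and Cenpi, of the inner kinetochore, by 0.33 in the second and 0.66 over the day (adjusted p = 9.39e-06). Ska3, which couples kinetochores to depolymerising microtubules, stood at 3.88 at GD9.5, against 4.58 at GD9.0, a change of -0.70 ± 0.0800 (adjusted p = 8.1e-05). Knl1, the scaffold on which Bub1 docks, fell by 0.51 over the day on its brightest probe set (adjusted p = 0.00503). Its 2 probe sets did not agree, with 1 called higher and 1 lower over the day, and 1 was called higher by GD9.0.

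Among 23 other motors and spindle proteins, 7 were higher and 1 lower at GD9.0, 6 higher and 3 lower in the second interval, and 12 higher and 1 lower over the day. Over all genes these shares were 6.78% and 6.74%, 14.1% and 10.3%, and 15.5% and 13.1%. Gpsm2, or LGN, which orients the spindle from the cell cortex, rose in both intervals by 0.59 and stood at 6.59 at GD9.5, against 6.0 at GD9.0 and 5.41 at GD8.5 (limma, 1.18 ± 0.0693 over the day, adjusted p = 2.19e-07). Its partner Numa1, which links the cortex to dynein, dipped to 4.89 at GD9.0, against 5.45 at GD8.5, and reached 5.78 at GD9.5, a change of -0.56 ± 0.0631 (adjusted p = 0.00012) followed by 0.89 ± 0.0515 (adjusted p = 5.55e-07). Kif20b, a kinesin of the midbody whose loss in mice gives a small brain, was at 5.66 at GD9.5, against 6.36 at GD9.0 and 6.55 at GD8.5 (-0.71 ± 0.0757 in the second interval, adjusted p = 5.33e-05).

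Of 17 cohesin, separase and other condensin genes, 3 were higher by GD9.0, 4 higher and 3 lower in the second interval, and 5 higher and 1 lower over the day. For these and the next lists, the shares of all genes were 6.78% and 6.74%, 14.1% and 10.3%, and 15.5% and 13.1%. Smc1a, a cohesin subunit, rose by 0.35 in the first interval, Rad21, the cohesin subunit that separase cuts, by 0.34 in the second, and Pds5b by 0.36 over the day, while Cdca5, or sororin, which protects cohesion, fell by 0.33 in the second interval and by 0.29 over the day. The 3 probe sets of Smc1a did not agree, with 2 called lower in the second interval, and 1 higher and 2 lower over the day. Of 17 centrosome and microcephaly genes, 3 were higher by GD9.0, 2 higher and 1 lower in the second interval, and 8 higher and 0 lower over the day (1 lower at an unadjusted p under 0.05). Sass6, the building block of the centriole cartwheel, rose by 0.48 and then 0.39 (limma, 0.87 ± 0.0737 over the day, adjusted p = 4.62e-06), and Cdk5rap2, which anchors microtubule nucleation at centrosomes, fell by 0.38 in the second interval (adjusted p = 0.015). Of 11 other cytokinesis genes measured, 1 was higher and 1 lower by GD9.0, 4 higher and 1 lower in the second interval, and 4 higher over the day. Cep55, which starts the final cut at the midbody, rose by 0.40 and stood 0.74 ± 0.0556 higher over the day (adjusted p = 1.79e-06), Pdcd6ip fell by 0.47 in the first interval, and in the second Chmp4b, the cutting filament, rose by 0.35 and Septin7 fell by 0.15.

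**Figure D4:**
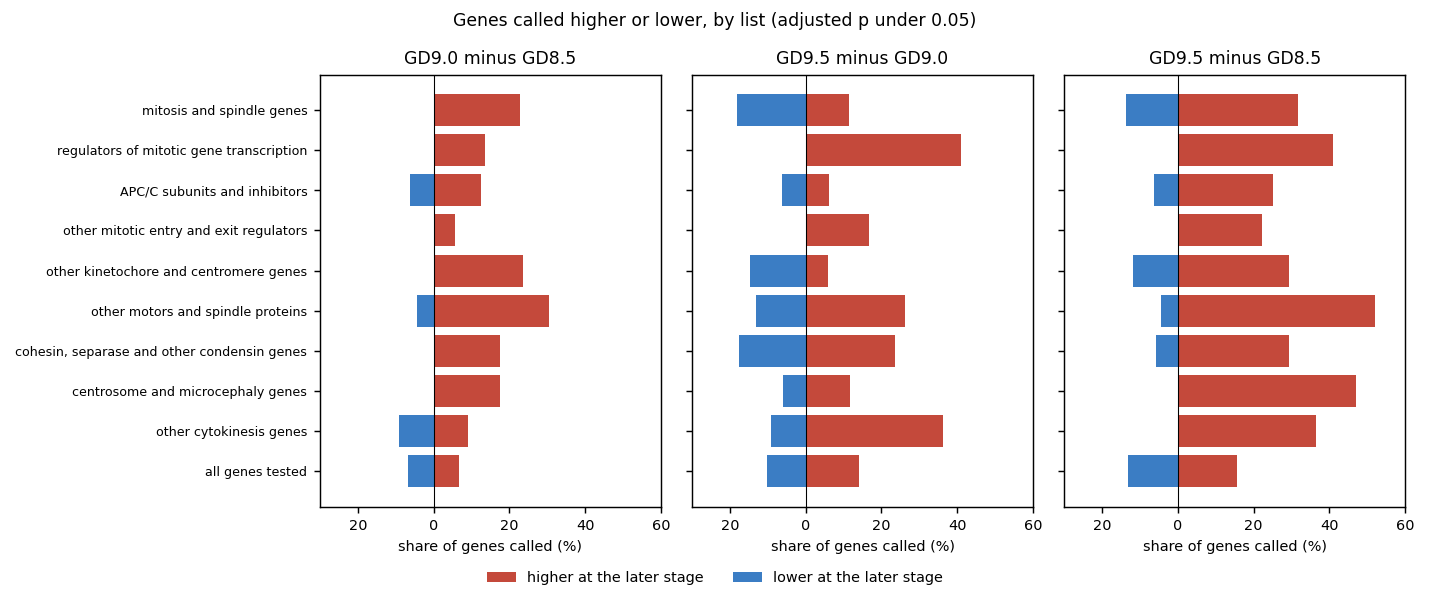
Share of genes (%, horizontal axis) called higher (red, to the right) or lower (blue, to the left) at the later stage, by limma at an adjusted p under 0.05, for the mitosis and spindle genes, for 8 lists of other genes of the same machinery and for all genes tested. In the first panel the mitosis and spindle genes reach 22.7% on the right and 0 on the left, against 6.78% and 6.74% of all genes, and in the second 11.4% and 18.2%, against 14.1% and 10.3%.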

How the data were processed

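Per the labels' protocols, biotin-labelled cDNA from dissected neural tubes was read on Affymetrix mouse expression arrays. The deposited values of 10 arrays were log2 signals already normalized by the authors, and GD8.5 replicates 1 and 2 were deposited as linear intensities (medians of 92.2 and 98.3). RMA, GCRMA and Affymetrix Expression Console 1.2.1 are named in the submitters' processing notes without their roles. Of 45101 probe sets, 64 controls were left out, 34945 named 1 gene, 932 several and 9160 none, per the platform annotation. Each of 18193 genes took its brightest single-gene probe set. The 10 log2 arrays were fitted with limma (3.58.1, R 4.3.3), 1 mean for each stage (7 residual degrees of freedom), and two-sided moderated tests were adjusted with Benjamini-Hochberg over all genes and called under 0.05. Errors beside changes are standard errors. A second fit ran over probe sets. The background level was the 95th percentile of 39 olfactory receptor genes.

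The genes described and the lists set beside them were chosen with earlier results of these data known. Every gene of the 45 is accounted for, those with the 6 largest called rises and falls in each comparison with all array values, and from each further list the largest called rise and fall per comparison. Alternatives were centring, repeated quantile normalization, other probe set choices, an intensity trend with robust spread, a replicate block, 12 arrays, genes above background, only the stages compared, and leaving out each array. The fit was tested on simulated data.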

Additional observations from a re-analysis of the deposited data

Results flagged for a closer look

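Dixon's test was run on the GD9.0 and GD9.5 values of each of the 44 genes, 88 tests of 4 arrays, and marked 2 arrays, where chance marks about 1 in 20. Kif11 at GD9.0 had 6.81 on replicate 3, against 6.87 on each of the other arrays of the stage, and Mki67 at GD9.5 had 9.24 on replicate 1, against 9.20 on the others. Kif11 rose by 0.20 in the first interval, a call that was kept without GD9.0 replicate 3. Mki67 rose by 0.16 in the second, and that call was lost without GD9.5 replicate 1 and under 7 other alternatives.

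A test of the second change minus the first marked 8 genes, all with the lower change between GD9.0 and GD9.5 (limma with Benjamini-Hochberg adjustment). The differences were -0.36 for Aurka, -0.40 for Ttk, -0.33 for Kif11, -0.52 for Cenpe, -0.49 for Cenpf, -0.49 for Anln, -0.35 for Nuf2 and -0.36 for Ncapg. Cenpf was the only 1 of these that passed under all 18 alternatives in which the difference could be fitted.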

How the results depend on the processing

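GD8.5 rested on 2 arrays, and every change but those of Cdc25b was under 1.5-fold, although all 44 genes were above the olfactory receptor level. Calls that held under every alternative that could be fitted for the gene numbered 5 of 10 in the first interval (Mki67, Cdc25b, Kif4, Cenpf and Prc1), 5 of 13 in the second (Cdc25b, Aurka, Kif20a, Anln and Ncapg) and 5 of 20 over the day (Mki67, Cdc25b, Kif4, Anln and Prc1). That was 18 of the 19 alternatives for Cdc25b, Prc1, Kif20a and Ncapg, which had no unshared probe set. Calls lost or turned under more alternatives than they held were those of Ccna2 and Kif11 in the first interval, of Top2a, Plk4, Cenpf and Fzr1 over the day, and of Ttk and Nuf2 for the second change minus the first. The causes of the moves below were not tested.

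For GD9.0 minus GD8.5, the 10 higher calls were 6 with probe sets not shared between transcripts (34 genes) and 19 with an intensity trend, which also gave 1 lower call, and the median of 0.142 was 0.179 with centred arrays and 0.103 with 12 arrays. For GD9.5 minus GD9.0, the 5 higher calls were 2 with centring, 3 with unshared probe sets, 10 with the trend, 3 with a replicate block and 2 with 12 arrays, the 8 lower calls were 14 with centring, 13 with the trend and 4 with 12 arrays, and the median was -0.12 with centring. For GD9.5 minus GD8.5, the 14 higher calls were 8 with centring, 9 with unshared probe sets, 9 with the block and 9 with only the stages compared, and the median was 0.044 with the mean of probe sets and 0.046 with 12 arrays. For the second interval minus the first, the 8 lower calls were 16 with centring, 17 with the trend, 3 with the block and 4 with 12 arrays, and the median was -0.263 with centring and -0.221 with unshared probe sets.

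Leaving out 1 array at a time gave 5 to 9 higher, 0 lower and medians of 0.118 to 0.15 in the first interval, 3 to 5 higher, 7 to 9 lower and -0.062 to -0.037 in the second, 6 to 15 higher, 1 to 6 lower and 0.075 to 0.108 over the day, and 0 to 1 higher, 2 to 6 lower and -0.181 to -0.123 for the difference. With the mean of probe sets the sign turned for Aspm (-0.18 in the second interval, -0.07 over the day), Spc25 (-0.06 and -0.01), Top2a (-0.06 over the day) and Cenpf (-0.02 over the day), and with unshared probe sets for Spc25 (-0.30 and -0.29) and Top2a (-0.37 over the day). Same-numbered arrays of different stages had deviations with correlations of -0.059 to 0.122. No differently numbered arrays were set beside them, so this check cannot tell whether the replicate numbers pair the arrays. The block is given as a value only.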
